A study of Mus musculus with 12 samples.

Results

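MOF (Kat8), the lysine acetyltransferase that places H4K16ac on chromatin, was mapped by ChIP-seq in wild-type mouse haematopoietic stem cells (HSCs), and 288 of the summits called there lay outside protein-coding genes. They were taken from 1876 summits by position alone. A summit was kept where it lay on chromosomes 1-19 or X (without chromosome 9 below 4 Mb), outside every protein-coding gene of the RefSeq mm10 annotation, more than 1 kb from any coding gene start or end, and more than 500 bp from any tRNA or snRNA gene. On the chromosomes used there were 1839 summits, so the 288 made up 15.7% (95% Wilson interval 14.1 to 17.4). The others were 1145 at a coding gene end, 377 inside a coding gene and 29 beside a tRNA or snRNA gene. The distance limit fell between the summit 1104 bp from Tnfrsf1b, which was kept with a score of 2.20, and the summit 968 bp from Eapp, which was not, with a score of 9.68.

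The series profiled MOF in HSCs and megakaryocyte-erythroid progenitors (MEPs) of Mof-/+ and wild-type mice, with GATA1 in HPC7, a cultured blood progenitor line grown with SCF. Mof-/+ HSCs and wild-type HSCs were lineage-negative, Sca-1+, Kit+, CD34- and Flt3- cells, 15000 per sort, and Mof-/+ MEPs and wild-type MEPs were lineage-negative, Sca-1-, Kit+, CD34-, IL7r- and CD16/32- cells, 30000 per sort, all from C57BL/6 bone marrow pooled over several bones. The HPC7 line was wild type, and the labels give no treatment, age or sex. Each group held 1 library with a peak list, so no difference between groups has a replicate check and no p-value is given. The intervals printed cover counting error only.

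The lists held 338 peaks for Mof-/+ HSCs, 64 for Mof-/+ MEPs, 1876 for wild-type HSCs, 898 for wild-type MEPs and 477 for GATA1 in HPC7, 3653 in all. Peak lists measure no expression, so neither the loss of a Mof allele nor the cell type can be checked in them, and read depth was not given. The wild-type lists gave 1-bp summits with 1 score, the Mof-/+ lists gave intervals with a score and a fold enrichment, and the GATA1 list gave intervals alone. No header says what the score is. Its minimum in the wild-type HSC list was just above 1.3, where a −log10 q-value cut at 0.05 would lie, and it is read here as the authors' −log10 q of each peak. The score served only to describe and rank peaks within a list.

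MOF acts in 2 complexes, MSL and NSL, and in mammals NSL is mostly found at promoters of active genes, while H4K16ac loosens the packing of nucleosomes. Promoters are not limited to coding genes. Long non-coding RNAs (lncRNAs) and the host genes of small nucleolar RNAs (snoRNAs, which guide the modification of ribosomal RNA) are transcribed by the same polymerase as messenger RNAs, and many microRNAs are cut from such transcripts.

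A number of summits lay at lncRNA starts. The sequences of 5 such starts are shown because the summit lay within 70 bp of the listed start. They also cover a nuclear lncRNA with 3 summits in or near the gene (Malat1) and a pair of snoRNA hosts (2410006H16Rik and Snhg8). Gm38882 is the lncRNA start with the highest score that was also found in another list. Gm31812 is the start closest to a summit on the upstream side. Each is the 300-base window from 250 bases before the start to 50 bases from it onward, in the direction of transcription, from RefSeq (GRCm38.p6), with CpG dinucleotides in capitals. The windows were chr19:5802623-5802922 on the minus strand for Malat1, chr6:117879383-117879682 on the plus strand for Gm38882, chr11:62602627-62602926 on the plus strand for 2410006H16Rik, chr3:123508287-123508586 on the minus strand for Snhg8 and chr1:52113841-52114140 on the minus strand for Gm31812. Counted from the window's 5′ end, the summit was base 185 in Malat1, 255 in Gm38882, 272 in 2410006H16Rik, 188 in Snhg8 and 249 in Gm31812.
Malat1: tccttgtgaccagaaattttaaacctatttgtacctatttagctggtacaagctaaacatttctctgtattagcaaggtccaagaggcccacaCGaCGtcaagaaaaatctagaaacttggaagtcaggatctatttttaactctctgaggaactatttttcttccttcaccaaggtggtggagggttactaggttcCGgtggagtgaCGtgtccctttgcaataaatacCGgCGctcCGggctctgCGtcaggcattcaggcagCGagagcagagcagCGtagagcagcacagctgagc
Gm38882: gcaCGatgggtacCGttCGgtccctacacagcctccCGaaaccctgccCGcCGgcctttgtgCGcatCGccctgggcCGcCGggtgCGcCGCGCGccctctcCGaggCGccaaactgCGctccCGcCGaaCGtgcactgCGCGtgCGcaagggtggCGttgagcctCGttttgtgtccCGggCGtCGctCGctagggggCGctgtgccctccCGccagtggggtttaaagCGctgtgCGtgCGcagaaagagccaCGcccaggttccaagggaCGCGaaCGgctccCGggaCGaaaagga
2410006H16Rik: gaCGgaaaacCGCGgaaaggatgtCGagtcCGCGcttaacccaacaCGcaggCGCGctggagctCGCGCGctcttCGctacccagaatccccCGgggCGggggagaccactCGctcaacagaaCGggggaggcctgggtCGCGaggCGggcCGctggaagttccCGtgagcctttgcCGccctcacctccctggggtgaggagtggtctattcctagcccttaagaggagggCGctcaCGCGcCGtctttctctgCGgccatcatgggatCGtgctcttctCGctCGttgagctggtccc
Snhg8: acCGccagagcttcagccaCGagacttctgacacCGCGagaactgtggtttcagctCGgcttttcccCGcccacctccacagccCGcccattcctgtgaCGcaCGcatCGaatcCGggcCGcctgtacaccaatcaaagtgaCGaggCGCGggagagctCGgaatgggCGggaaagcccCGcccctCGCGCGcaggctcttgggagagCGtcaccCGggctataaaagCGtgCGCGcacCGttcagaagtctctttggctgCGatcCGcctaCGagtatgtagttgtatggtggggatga
Gm31812: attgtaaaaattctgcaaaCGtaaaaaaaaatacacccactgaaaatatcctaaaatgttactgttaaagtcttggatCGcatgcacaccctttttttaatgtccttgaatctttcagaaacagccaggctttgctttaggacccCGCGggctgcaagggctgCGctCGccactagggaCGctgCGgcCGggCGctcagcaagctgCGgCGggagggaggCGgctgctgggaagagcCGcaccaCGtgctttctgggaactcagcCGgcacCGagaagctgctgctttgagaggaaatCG

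The windows differed in base composition. Gm38882 held 40 CpGs at 69.7% GC, 2410006H16Rik held 31 at 65.7%, Snhg8 held 30 at 62.0% and Gm31812 held 18 at 52.7%, while Malat1 held 10 at 47.0%. In all, 10 listed lncRNA windows contained a summit, with a median of 16 CpGs (range 5 to 40), and 8 of them had 10 or more. Over all 11588 listed lncRNA windows the median was 4 CpGs and 19.1% had 10 or more, and over 21263 coding windows the median was 13 CpGs and 56.8% had 10 or more. The lncRNA windows compared, here and in the word search below, were not limited to places away from coding genes. The 10 windows were, through the rule for their summits. Because the 10 windows were few, these figures are a description.

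A search of both strands for 6 short words gave few matches. The word GGGCGG, which SP family factors bind, was in 3 of the 10 windows, against 16.3% of all lncRNA windows and 46.2% of coding windows. The NF-Y word CCAAT was in 4, against 36.0% of lncRNA windows and 38.2% of coding windows. Gm31812 alone held the NRF1 word GCATGCG, which 2.01% of lncRNA windows and 4.44% of coding windows held. The same window alone held the E-box word CACGTG, present in 5.89% of lncRNA windows and 7.84% of coding windows. The ETS factor word CCGGAAG was in none of the 10, against 3.89% of lncRNA windows and 11.6% of coding windows. The word AGATAAG, bound by blood factors of the GATA family, was likewise in none, against 3.78% of lncRNA windows and 2.64% of coding windows. Snhg8 held the SP word 4 times and the NF-Y word 1 time, 2410006H16Rik held the SP word 2 times, and Malat1 and Gm38882 held none of the words. Matches of different words overlapped in 1 window, Smkr-ps.

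A pair of microRNA genes lay near summits and their mature forms are shown 5′ to 3′ with the seed, bases 2 to 8, in capitals, since these are the RNAs that the loci give rise to (RefSeq, GRCm38.p6). Mir142, a microRNA gene known for its strong activity across blood lineages, lies at chr11:87756864-87756927 on the plus strand, 1275 bp from its summit. Mir7671 lies at chr11:53763597-53763654 on the minus strand, 202 bp from its summit. No 2 of the 4 forms share a seed.
miR-142a-5p: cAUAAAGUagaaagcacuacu
miR-142a-3p: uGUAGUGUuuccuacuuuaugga
miR-7671-5p: aGGCUCCGcucuggcuagcuucc
miR-7671-3p: aAGCGGGCaggcggagaaccac

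Of the 288 summits, 82 lay in or within 1 kb of an annotated non-coding gene (28.5%, interval 23.6 to 33.9), while the same annotation took up 15.5% of the eligible chromosome length. LncRNA genes accounted for 62 (21.5%, interval 17.2 to 26.6, against 12.1% of the length), pseudogenes for 10 (3.47%, against 2.60%), small RNA genes for 6 (2.08%, interval 0.958 to 4.47, against 0.167%) and other loci for 4 (1.39%, against 0.642%). Each summit was put in a single class, with small RNA genes taken first and lncRNA genes next. An lncRNA gene lay within 1 kb of 66 summits, those classed at small RNA genes included. The remaining 206 (71.5%) had no annotated gene within 1 kb, and 84.5% of the eligible length was of that kind. The eligible length, 1546 Mb, is that of positions meeting the same distance rules between the first and last annotated gene of each chromosome, and gaps and repeats in the assembly were not taken out of it. The median scores of the classes were close: 5.56 for lncRNA genes, 4.91 for small RNA genes, 6.11 for pseudogenes and 5.29 where no gene was annotated.

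At lncRNA starts the share stood further from the share of length than over lncRNA genes as a whole. Starts were listed on all chromosomes used other than chromosome 18, which left 283 summits. The listed starts covered 9533 lncRNA genes, and 12697 were annotated on the chromosomes used. Some lncRNA genes therefore had no listed start and are not in these counts. Of the 283 summits, 22 lay within 1 kb of a listed lncRNA start (7.77%, interval 5.19 to 11.5, against 0.874% of the length) and 15 within 200 bp (5.30%, interval 3.24 to 8.56, against 0.178%). Among the 22, the median distance to the start was 123.5 bp, 7 lay upstream and 15 at or downstream of it, and the median score was 6.19.

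**Figure D1:**
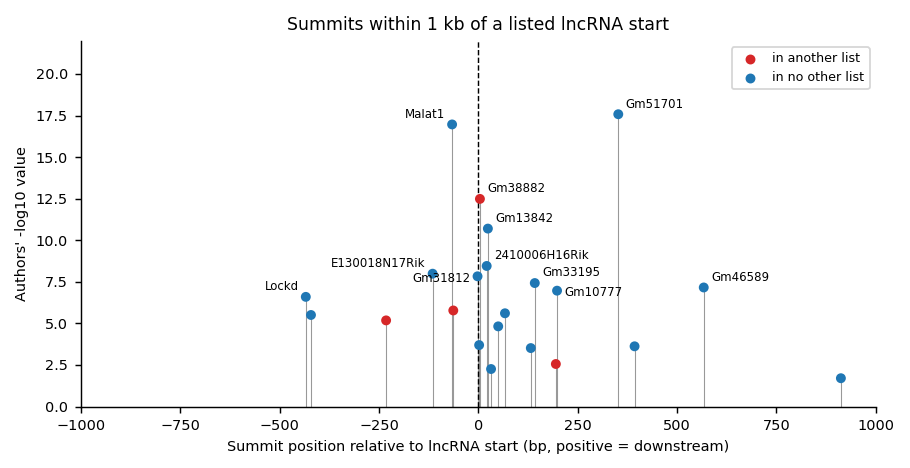
Summits outside coding genes within 1 kb of a listed lncRNA start, by position relative to the start (bp, positive in the direction of transcription) and the authors' −log10 value in wild-type HSCs. Each line is 1 of 22 summits, red where another list had a peak at the same place (4 summits) and blue otherwise. 15 of the 22 lie within 200 bp of the start, and the highest are Gm51701 at 17.6 and Malat1 at 16.97.

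Malat1, an abundant nuclear lncRNA that associates with splicing speckles, had a group of 3 summits in or near the gene. The gene spans chr19:5795690-5802672 on the minus strand. The highest of the 3, with a score of 16.97, was at position 5802738, 66 bp upstream of the start. A second, at 9.34, was at 5803703, 1031 bp before the gene and so just beyond the 1 kb limit. The third, at 4.80, was at 5800200 within the gene. None of the 3 was found in any other list. Neat1, the neighbouring lncRNA that builds paraspeckles, had 1 of the 288 summits, 208 bp beyond its higher-coordinate end, with a score of 3.62. That summit too was in no other list. No start was listed for Neat1, so its summit is not counted among those at lncRNA starts. Another wild-type HSC summit, 4839 bp from Neat1 with a score of 6.99, was not among the 288.

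Several other lncRNA starts carried a summit very close to the start. The summit of Gm38882 was 4 bp downstream of its start (12.5), that of Gm13842 24 bp downstream (10.7) and that of Gm31812 2 bp upstream (7.83). 2900052L18Rik had a summit 32 bp downstream of its start at 2.26 and Smkr-ps 2 bp downstream at 3.70, so a close position did not go with a high score throughout. E130018N17Rik had its summit 115 bp upstream of the start (7.99), and Lockd, a lncRNA gene beside Cdkn1b that is known from mouse erythroid cells, 434 bp upstream (6.60). The functions of most of these Gm and Rik genes are not known.

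Among the 10 lncRNA genes with the highest scores, several summits were far from the listed start. Gm36876, a gene of 54045 bp at chr11:108980739-109034783, had its summit at position 109011907, in its interior, with a score of 26.7. The summit in Gm51701 (17.6) was 352 bp downstream of the start, that in 4930509E16Rik (16.5) 1411 bp, and that in Gm46762 (16.3) 6914 bp. Dusp2, a phosphatase gene of activated lymphocytes, was the nearest coding gene to the last of these, at 7.52 kb. Platr8 had its summit inside the gene at 11.2, and A430078I02Rik at 9.57. Gm52861 (10.5) belongs to the chromosome 6 array described further on.

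All 6 summits near a small RNA gene are given here, and 4 of the 6 were at hosts of snoRNAs. The summit at the start of 2410006H16Rik (8.45, 21 bp downstream) lay 188 bp from Snord49b and 562 bp from Snord49a. Snhg8 had a summit 63 bp upstream of its start (5.78), 333 bp from Snora24, and Snhg3 had one 195 bp downstream of its start (2.56), 512 bp from Snora73a and 965 bp from Snora73b. Epb41l4aos on chromosome 18 had a summit 68 bp from the gene (6.87) and 340 bp from the snoRNA gene Gm23639. The last pair were Scarna2, whose RNA guides modification in Cajal bodies, at 330 bp (3.00), and Mir7671 at 202 bp (4.05). Irf1, the interferon response factor, was the coding gene nearest to Mir7671's summit, at 6.16 kb. With these distances a summit cannot be assigned to the small RNA rather than to its host or neighbour.

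From a list of 82 non-coding genes of blood cells and of general function, 80 were in the annotation and 6 had one of the 288 summits within 5 kb (7.5%): Malat1, Neat1, Snhg3, Snhg8, Epb41l4aos and Mir142. Over all 26512 annotated non-coding genes on these chromosomes the count was 145 (0.547%). The list was chosen with earlier results of these data known, so its share is no independent evidence. The microRNA genes Mir223, Mir144, Mir451a, Mir155 and Mir150, and Xist, Gas5, H19 and Meg3, had none. Mir21a, Neat1, Rmrp, Rn7s1, Rpph1 and Snhg4 had summits of the wild-type HSC list within 5 kb that were not among the 288.

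The 10 summits at pseudogenes included a ribosomal one. Rn18s-rs5, annotated as a pseudogene related to 18S ribosomal RNA at chr17:39846354-39848202, had a summit 583 bp outside it with a score of 11.5. 2610005L07Rik on chromosome 8 had a summit 22 bp from it (19.3) that was also 140 bp from the pseudogene Gm20584, and Gm10060 on the same chromosome had one 2 bp from it (3.88). These 3 were the pseudogene summits found in another list. The other 7 were at 4632415L05Rik (8.47), Gm5049 (8.03), Gm17834 (7.97), Atp10d (4.25), Gm3619 (4.15), LOC115489104 (1.83) and 1810014B01Rik (1.54). Pseudogenes and repeats have near-identical copies elsewhere, and how reads with several possible positions were treated is not given in the sources used here.

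Distances to coding genes were short for positions outside genes. The median distance was 14.7 kb (95% interval 11.5 to 18.9, interquartile range 5.24 to 42.3 kb), and the median over the eligible length was 92.2 kb. The rule itself sets the minimum of 1 kb. Of the 288, 70 lay 1 to 5 kb from a coding gene (24.3%, against 7.25% of the length), 95 at 5 to 20 kb (33.0%, against 15.9%), 61 at 20 to 50 kb (21.2%, against 15.3%), 31 at 50 to 100 kb (10.8%, against 13.2%) and 31 beyond 100 kb (10.8%, against 48.4%). The median scores of these classes were 5.29, 5.47, 4.79, 4.60 and 5.94, in the same order, so distance and score did not run together.

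**Figure D2:**
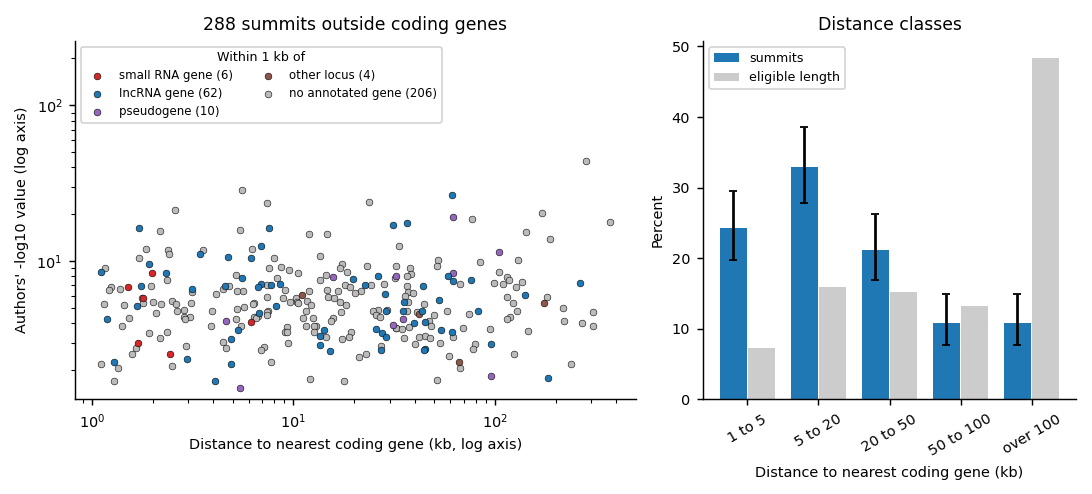
Left, the 288 summits by distance to the nearest coding gene (kb, log axis) and the authors' −log10 value in wild-type HSCs (log axis), coloured by the non-coding gene within 1 kb. Right, the percentage of summits (blue, bars of 95% Wilson intervals) and of eligible chromosome length (grey) in each distance class: 24.3% of summits and 7.25% of the length are at 1 to 5 kb, and 10.8% and 48.4% beyond 100 kb.

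The rule leaves out the 1145 summits within 1 kb of a coding gene start or end, so they are not counted here. Among the 288 there was no lean towards gene starts. Of the 223 whose nearest coding gene has a listed strand, 110 were closer to that gene's start (49.3%, interval 42.8 to 55.8) and 113 to its other end, and 53.5% of the eligible length with a listed strand was closer to a start. Within 5 kb the counts were 27 and 32. Of the 288, 29 (10.1%, interval 7.10 to 14.1) had a nearest coding gene with a wild-type HSC summit at 1 of its ends. Counted by gene this was 26 of 272 (9.56%), against 1346 of all 21631 coding genes (6.22%). Among the 29 were Dusp2, Ptma (the chromatin-binding prothymosin), Pim1 (a kinase downstream of cytokine signals), Zfp36 (an mRNA decay factor), Yy1, Foxo3, Cited2, Irf2bp2 and Cxcr4.

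A list of 39 coding genes of stem and progenitor cells had 3 members as the nearest coding gene within 100 kb of a summit (7.69%, against 243 of 21631 coding genes or 1.12%). Kit, the receptor for stem cell factor, had a summit at 74.2 kb (4.60), Lmo2, a bridging protein of blood transcription complexes, at 26.8 kb (4.38), and Cxcr4, the chemokine receptor that keeps stem cells in the marrow, at 22.9 kb (2.53). All 3 scores were below the median of the 288, and none of the 3 summits was in another list. Runx1, Gata2, Tal1, Meis1, Mecom, Erg and Fli1 were among the 36 with none. This list, too, was chosen with earlier results known.

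The scores of the 288 were those of the list as a whole, except at the top. Their median was 5.29 (95% interval 4.82 to 5.61, interquartile range 3.75 to 7.46, range 1.54 to 43.9), against 5.25 at coding gene ends and 5.33 inside coding genes. Above a score of 10 there were 36 of the 288 (12.5%), 117 at gene ends (10.2%) and 43 inside genes (11.4%). Above 15 there were 18 of the 288 (6.25%, interval 3.99 to 9.66), 25 at gene ends (2.18%, interval 1.48 to 3.20) and 8 inside genes (2.12%, interval 1.08 to 4.13). These cut points were picked after the scores were seen.

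The highest scores lay at very different distances from coding genes. The highest of all, 43.9, was on chromosome 3 at position 5860595, 282 kb from Pex2, a peroxisome assembly gene, and it ranked 3 in the whole wild-type HSC list. Next came a summit 5.57 kb from Cd209a, a lectin gene of dendritic cells, on chromosome 8 at 3754555 (28.5), and the summit in Gm36876, whose nearest coding gene was Axin2, a Wnt feedback gene, at 61.1 kb (26.7). Mid1, a ubiquitin ligase gene on X, had a summit at 7.39 kb (23.7). Atp13a2, a lysosomal transporter gene, had one at 2.59 kb (21.4).

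The next scores were 20.5 at 171 kb from Samd9l on chromosome 6, 19.3 beside 2610005L07Rik, 18.5 at 76.8 kb from Chd2, a chromatin remodeller, and 17.99 at 373 kb from Csmd1, the greatest distance of all. Below them were the lncRNA summits described above, then Chrna9 at 5.45 kb (15.8), Dgat2 at 2.17 kb (15.6), Haao at 142 kb (15.4) and Gm14496 at 11.9 kb (15.1). The last of the top 20 was at 187 kb from 9530057J20Rik (13.9). The 2 others, 24.1 and 14.99, lay in the chromosome 6 array. After Csmd1 and before Pex2, the greatest distances were 306 kb from Ndufa4 on chromosome 6 and 305 kb from Dleu7 on chromosome 14, and after Pex2 269 kb from Klf6 on chromosome 13, none of these 3 in another list. Among summits with no annotated gene within 1 kb, the names of nearest genes give position only: none of these data links a summit to a gene's activity.

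Over chromosomes the density varied. There were 18.6 summits per 100 Mb of eligible length in all, 35.1 on chromosome 6 (30 summits), 33.0 on chromosome 17 (18 summits) and 30.4 on chromosome 15 (19 summits), down to 10.4 on chromosome 16, 9.29 on chromosome 18 and 6.49 on X (8 summits). Of the 30 on chromosome 6, 9 lay in the array described next, and without them the density was 24.5 (21 summits), below that of chromosomes 17, 15, 11 (30.0) and 10 (28.9). Neighbouring summits at most 20 kb apart formed 8 groups with 22 members. Of these, 6 were pairs, the largest group was 7 summits on chromosome 6 between 47740085 and 47772314, and the other was Malat1 with 3.

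These 7 were part of a longer stretch of peaks on chromosome 6, called the array here, which started beside Rn4.5s, the gene of a small rodent RNA that is known from tandem copies and is made by RNA polymerase III. The annotation lists 1 copy, of 174 bp, at chr6:47654921-47655094. In an interval of chromosome 6 whose limits were set after the peaks were seen, Mof-/+ HSCs had 16 peaks, 4.73% of their list, and wild-type MEPs had 16 as well, 1.78% of their list. Wild-type HSCs had 12 summits there, the first at 47655209 and the last at 47772314, of which 9 were among the 288, 1 was at a coding gene end and 2 were inside coding genes. Of the 15 gaps between neighbouring peaks in Mof-/+ HSCs, 13 were under 6 kb, with a median of 4380 bp (402 to 5556). In wild-type MEPs 14 of 15 gaps were under 6 kb, with a median of 4339 bp (4274 to 5543). In wild-type HSCs 7 of 11 gaps were under 6 kb, with a median of 4377 bp (4231 to 4883), and the other 4 were 8700, 9965, 12966 and 54541 bp. A gap of this largest kind divided the array in all 3 lists, at 54.1 kb in Mof-/+ HSCs, 54.6 kb in wild-type MEPs and 54.5 kb in wild-type HSCs.

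The array's peaks fell in the same places across lists. The 12 wild-type HSC summits lay a median of 35.5 bp, and at most 70 bp, from a wild-type MEP summit. All 9 of the array's summits among the 288 were in the Mof-/+ HSC list and in the wild-type MEP list, none in the Mof-/+ MEP list, and 2 in the GATA1 list. Their wild-type HSC scores were 6.89 to 24.1, median 8.43. In Mof-/+ HSCs the median over the array's 16 peaks was 9.29 (1.37 to 16.96) with a median fold enrichment of 3.37, in wild-type MEPs the median was 27.1 (8.23 to 41.6), and in wild-type HSCs it was 8.73 over 12 (6.25 to 24.1). These are values within each list, and their sizes cannot be compared between lists. Whether the summits fall on further copies of Rn4.5s was not tested.

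**Figure D3:**
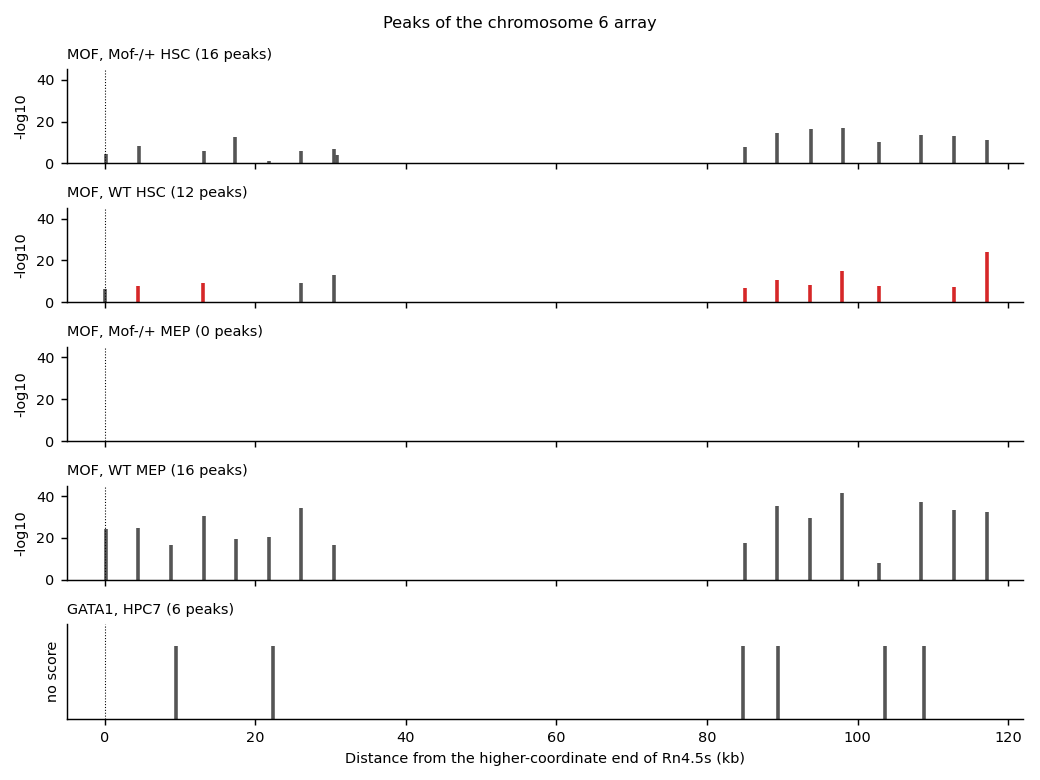
Peaks of the chromosome 6 array in the 5 lists, by distance from the higher-coordinate end of Rn4.5s (kb). Heights are the authors' −log10 values in each list, GATA1 intervals have no score, and red lines in wild-type HSCs are the 9 summits outside coding genes. Peaks recur at about the same places in Mof-/+ HSCs, wild-type HSCs and wild-type MEPs, and the Mof-/+ MEP list has 0.

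To see which summits recurred, the 1-bp summits of both wild-type lists were widened by 150 bp on both sides, and an overlap of at least 1 bp with a peak of another list was counted. Of the 288, 38 were in 1 or more of the 4 other lists (13.2%, interval 9.77 to 17.6), and 15.1% of all 1839 summits were. The other 250 were in none. The lists differ in length, so the shares are to be read along a list, not between lists.

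The share found in Mof-/+ HSCs was higher than at gene ends. It was 24 of the 288 (8.33%, interval 5.66 to 12.1), 27 of 1145 at gene ends (2.36%, interval 1.63 to 3.41) and 14 of 377 inside genes (3.71%, interval 2.22 to 6.14), and 3.53% of all 1839. Without the array it was 15 of 279 (5.38%, interval 3.28 to 8.68). The array's summits at a coding gene end (1) and inside coding genes (2) were kept in the values for genes. The interval of the 288 did not overlap that at gene ends, but it overlapped that inside genes. Without the array the interval overlapped both. The 9 summits of the array and the 11 others that overlapped a GATA1 interval made up 20 of the 24. Since all 20 were in the Mof-/+ HSC list, leaving them out could only lower the share, to 4 of 268 (1.49%, interval 0.582 to 3.77), and that value is no comparison with genes. The intervals take every summit as independent, which neighbouring summits such as the array's 9 need not be. Overlap of intervals is not a test, and no test of the difference was made.

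The share found in wild-type MEPs was close to that at genes. It was 35 of the 288 (12.2%, interval 8.87 to 16.4), 158 of 1145 at gene ends (13.8%, interval 11.9 to 15.9) and 46 of 377 inside genes (12.2%), and 13.8% of all 1839. Without the array it was 26 of 279 (9.32%, interval 6.44 to 13.3), and without GATA1 overlaps too 16 of 268 (5.97%, interval 3.71 to 9.48). Of the 20 summits left out in that last value, 19 were in the wild-type MEP list, so it too is no comparison with genes. The array's summits at and inside coding genes were again kept in the values for genes.

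The shorter lists gave few overlaps. Mof-/+ MEPs shared 4 of the 288 (1.39%, interval 0.541 to 3.52), 3 of 1145 at gene ends (0.262%) and 8 of 377 inside genes (2.12%), and 0.816% of all 1839. GATA1 in HPC7 shared 13 of the 288 (4.51%, interval 2.66 to 7.57), 3 of 1145 at gene ends (0.262%) and 8 of 377 inside genes (2.12%), and 1.31% of all 1839. All 13 were in the Mof-/+ HSC list too, and the 4 shared with Mof-/+ MEPs were all among them. GATA1 and MOF are different proteins and HPC7 is a cultured line, so a place found in both kinds of list was found with different antibodies and cells. Whether such places give signal irrespective of the antibody was not tested.

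**Figure D4:**
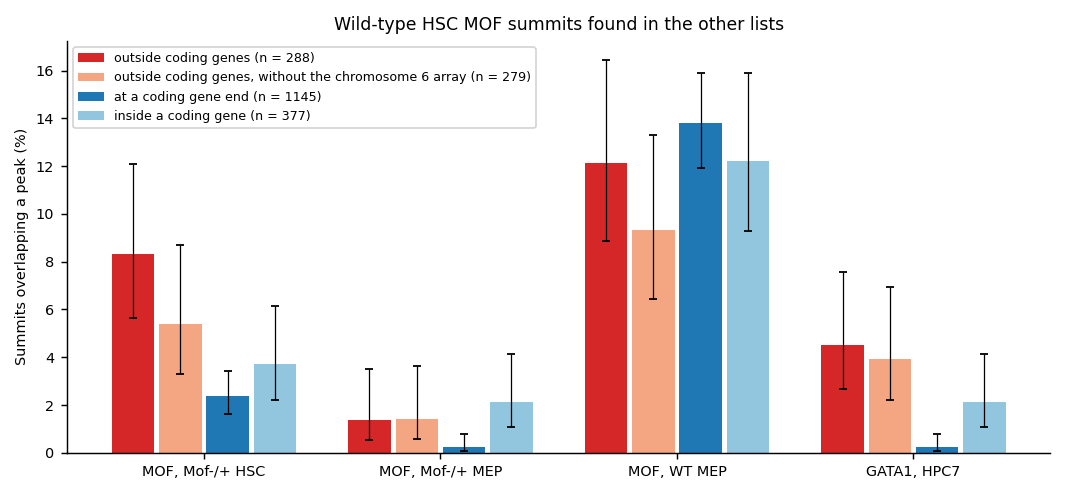
Percentage of wild-type HSC MOF summits that overlap a peak of each other list (1-bp summits widened by 150 bp on both sides), for summits outside coding genes (red), the same without the chromosome 6 array (orange), at coding gene ends (dark blue) and inside coding genes (light blue), with 95% Wilson intervals. Outside coding genes the Mof-/+ HSC share is 8.33% with the array and 5.38% without it, against 2.36% at gene ends. The bars at gene ends and inside genes include the array's summits there.

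Among the summits outside coding genes, those found in every list were 3. The summit 282 kb from Pex2 scored 55.8 in Mof-/+ HSCs, 15.9 in Mof-/+ MEPs, 52.7 in wild-type MEPs and 43.9 in wild-type HSCs. The one in Gm36876 scored 65.7 in Mof-/+ HSCs, 14.95 in Mof-/+ MEPs, 90.7 in wild-type MEPs and 26.7 in wild-type HSCs. The one 373 kb from Csmd1 scored 18.96 in Mof-/+ HSCs, 21.7 in Mof-/+ MEPs, 6.83 in wild-type MEPs and 17.99 in wild-type HSCs. All 3 also overlapped a GATA1 interval. Summits at genes were in every list too. Of those inside coding genes, 8 overlapped a GATA1 interval. Leaving out the 8 lowered the wild-type MEP count from 46 to 38 and the Mof-/+ MEP count from 8 to 1. The Mof-/+ HSC count fell from 14 to 8. At gene ends, 3 overlapped a GATA1 interval. Without them the counts fell from 158 to 155, 3 to 0 and 27 to 25, in the same order. How many summits at genes were in every list was not counted.

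A further 10 summits outside coding genes were in 3 of the other lists, 2 of them in the array. Rn18s-rs5 was in the Mof-/+ HSC list at 61.5, in the Mof-/+ MEP list at 4.36 and in the GATA1 list, against 11.5 in wild-type HSCs, and its Mof-/+ HSC interval was 5776 bp wide, from 39843033 to 39848808 on chromosome 17. The other 7 were in the Mof-/+ HSC, wild-type MEP and GATA1 lists. Samd9l's scored 18.7 in Mof-/+ HSCs, 17.1 in wild-type MEPs and 20.5 in wild-type HSCs. Gm14496's scored 52.7 in Mof-/+ HSCs, 35.4 in wild-type MEPs and 15.1 in wild-type HSCs.

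The remaining 5 lay near Fgf14, Mrgprd, Gm2244 (a pair of summits) and Gm45871, and their wild-type HSC scores ran from 2.55 to 9.15. The summit 124 kb from Fgf14 scored 58.9 in Mof-/+ HSCs, 68.2 in wild-type MEPs and 2.55 in wild-type HSCs. Mrgprd's, at 17.1 kb, scored 78.8 in Mof-/+ HSCs, 40.5 in wild-type MEPs and 5.47 in wild-type HSCs. Those 118 and 115 kb from Gm2244 scored 55.9 and 50.8 in Mof-/+ HSCs, 57.7 and 79.8 in wild-type MEPs, and 7.54 and 4.28 in wild-type HSCs. Gm45871's, on chromosome 18, scored 72.5 in Mof-/+ HSCs, 25.9 in wild-type MEPs and 9.15 in wild-type HSCs. In the Mof-/+ HSC list of 338, Mrgprd's ranked 2, Gm45871's 5 and Fgf14's 11, and in the wild-type HSC list of 1876 they ranked 876, 266 and 1686. The lists differ in length and were not scaled to each other, so these ranks do not show a change with genotype.

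**Figure D5:**
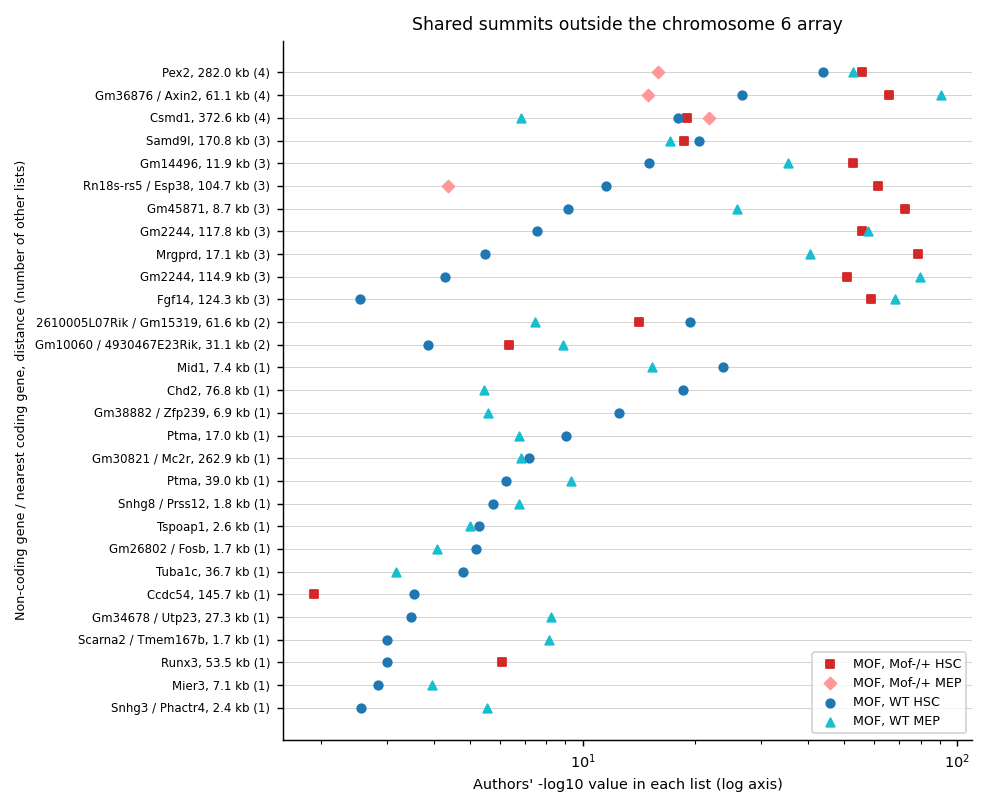
The 29 summits outside coding genes and outside the chromosome 6 array that were found in another list, with the authors' −log10 value in each list that has a score (log axis). Labels give the non-coding gene where there is one, the nearest coding gene with its distance, and the number of other lists, GATA1 included. The summits near Fgf14, Mrgprd and Gm2244 lie between 50.8 and 78.8 in Mof-/+ HSCs and between 2.55 and 7.54 in wild-type HSCs, on scores that were not scaled to each other.

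Of the 9 summits in exactly 2 other lists, 7 were in the array. The other two, 2610005L07Rik and Gm10060 on chromosome 8, were in the Mof-/+ HSC list at 14.1 and 6.38, in the wild-type MEP list at 7.45 and 8.86, and in wild-type HSCs at 19.3 and 3.88. Both are pseudogene loci. The Mof-/+ HSC list alone shared 2 summits. The one 53.5 kb from Runx3, a RUNX transcription factor of lymphoid cells, scored 6.10 in Mof-/+ HSCs and 2.99 in wild-type HSCs, and the one 146 kb from Ccdc54 scored 1.92 in Mof-/+ HSCs and 3.55 in wild-type HSCs.

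The summits shared with wild-type MEPs and no other list spread over the score range. There were 14, with a median wild-type HSC score of 5.53 (2.56 to 23.7): 4 lay below the interquartile range of the 288, 6 within it and 4 above it. Of the 14, 7 had a lncRNA or small RNA gene within 1 kb. Over the 288, 21.5% were classed at lncRNA genes and 2.08% at small RNA genes. At Gm38882 the score was 5.59 in wild-type MEPs and 12.5 in wild-type HSCs. At Snhg8 it was 6.77 in wild-type MEPs and 5.78 in wild-type HSCs, and at Snhg3 5.55 in wild-type MEPs and 2.56 in wild-type HSCs. At Scarna2 it was 8.15 in wild-type MEPs and 3.00 in wild-type HSCs. Gm26802, beside the transcription factor gene Fosb, scored 4.09 in wild-type MEPs and 5.18 in wild-type HSCs. The summit beside Mir142 scored 5.01 in wild-type MEPs and 5.29 in wild-type HSCs. In all, 4 of the 22 lncRNA start summits recurred, all of them in wild-type MEPs only. Of the 288, 38 recurred in any other list (13.2%).

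Among the others shared with wild-type MEPs alone, Mid1's scored 15.4 in wild-type MEPs and 23.7 in wild-type HSCs, and Chd2's 5.45 in wild-type MEPs and 18.5 in wild-type HSCs. The 2 summits 16.95 and 39.0 kb from Ptma scored 6.77 and 9.31 in wild-type MEPs, and 9.04 and 6.25 in wild-type HSCs. Gm30821, Tuba1c, Gm34678 and Mier3 gave the remaining 4, between 3.18 and 8.25 in wild-type MEPs.

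Recurrence was more frequent at high wild-type HSC scores. When the whole list was split at its quartiles, giving 4 score bands, 16 of 72 in the highest band (above 7.49) were in the Mof-/+ HSC list (22.2%, interval 14.2 to 33.1), and in the other bands, from low to high, 3 of 73, 2 of 69 and 3 of 74. Without the array the highest band gave 9 of 65 (13.8%, interval 7.46 to 24.3), against 13 of 283 at gene ends (4.59%, interval 2.70 to 7.70) and 11 of 96 inside genes (11.5%, interval 6.52 to 19.4). Array summits were not taken out of the values at gene ends and inside genes, here or for wild-type MEPs. In wild-type MEPs the highest band gave 19 of 72 (26.4%), without the array 12 of 65 (18.5%), 50 of 283 at gene ends (17.7%) and 23 of 96 inside genes (24.0%), while the other bands, from low to high, gave 5 of 73, 4 of 69 and 7 of 74 of the summits outside genes. Of the 18 summits above 15, 9 were in another list. Over all wild-type HSC summits above 15 on the chromosomes used this was 29 of 52. It was 11 of 25 at gene ends and 8 of 8 inside genes. Those of the 18 that were in none included Cd209a, Atp13a2, Gm51701, Malat1, 4930509E16Rik, Gm46762, Chrna9, Dgat2 and Haao.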

How the data were processed

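ChIP-seq libraries of MOF and GATA1 were analysed as deposited peak lists, 5 of 12 samples; the other 7 (inputs and H4K16ac) were not analysed here. Per the submitters' processing notes, Bowtie2 2.3.0.1, deepTools, MACS2 and mm10 were used. The call settings were not given in the sources used here, nor were pooling and the handling of multi-mapping reads. The wild-type lists deposited by the authors hold 1-bp summits with a score read here as −log10 q; the Mof-/+ lists deposited by the authors hold intervals with −log10 q, another score and fold enrichment; the GATA1 list holds intervals only. Depth is unknown.

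Positions were set against the RefSeq mm10 (GRCm38.p6) gene table with Python 3.11.15, numpy 2.4.6, pandas 2.3.3 and scipy 1.17.1. Overlap was counted after widening 1-bp summits by 150 bp on both sides, from 1 bp. Shares have 95% Wilson intervals, and medians have order-statistic intervals. The eligible length was sampled every 500 bp. The steps were tested on simulated positions. Groups have 1 library each, so no test was made.

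The members and lists were chosen with earlier results of these data known. The summits named are the 20 highest; all near small RNA genes; the 10 highest near lncRNA genes, near pseudogenes and with no gene; those in other lists; the 5 farthest; groups of 3 or more; and members of the gene lists. Others named (lncRNA starts, nearest genes with a summit) were chosen after their values were seen. Alternatives leaving out the chromosome 6 array, or the array and GATA1 overlaps, were added after seeing the data.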

Additional observations from a re-analysis of the deposited data

How the results depend on the processing

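Of 76 alternative values, 66 stayed within the interval of the value reported, or within 1.5 times for the count, and 10 moved out of it. Some could not move: requiring more than 1 kb from tRNA and snRNA genes kept the same 288 summits. The 66 is therefore no measure of how stable the results are. Keeping summits above the median score of the whole list left 146 summits, with 13.0% in the Mof-/+ HSC list and 17.8% in the wild-type MEP list. Counting summits inside a non-coding gene gave 20.8% in place of 28.5%, and within 5 kb of one 41.3%. Requiring more than 5 kb from coding gene ends, which removes the nearest summits by construction, gave a median distance of 26.9 kb. Leaving out the chromosome 6 array, an alternative chosen after seeing the data, gave 5.38% in the Mof-/+ HSC list. Leaving out the array and GATA1 overlaps, also chosen after seeing the data, gave 1.49% in the Mof-/+ HSC list, 0% in the Mof-/+ MEP list and 5.97% in the wild-type MEP list. Of the 20 summits this removes, 20 were in the Mof-/+ HSC list and 19 in the wild-type MEP list, so the falls follow from the choice. The median score stayed between 5.25 and 5.29, and the number of summits otherwise reached at most 317. The GATA1 share ranged from 3.94% to 7.53% over its alternatives.

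No paired analysis was possible because each group compared has 1 library. For the same reason no alternative leaves out a library. Peak lists carry neither depth nor input signal, and a place without a peak in a list was not shown to lack MOF there.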
